A study of Rattus norvegicus with 9 samples.

Results

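The genes described here are 9 genes of neuronal identity and maturation, Rbfox3, Neurod1, Neurod2, Neurod6, Prox1, Tbr1, Bcl11b, Calb1 and Dcx, taken by symbol from a table of 34092 genes. Their levels were measured in 9 RNA sequencing libraries of primary hippocampal cultures, which were prepared from WT rat fetuses at embryonic day 17 and kept for 7 days in vitro (DIV) in neurobasal medium with B27 and without mitotic inhibitors. In the Control group the cultures received vehicle. In the NPCT group they received 1 nM of human aminoprocalcitonin (NPCT), the N-terminal fragment of procalcitonin, and in the PCT group 1 nM of human procalcitonin (PCT), the parent protein of NPCT, each for 24 h. There were 3 libraries per group, and the study's methods speak of RNA pooled from biological triplicates, so the p-values below measure the spread between these libraries, which may be in part technical. Levels are given as FPKM, fragments scaled by the length of the gene and the depth of the library. Comparisons between genes therefore rest on the annotated gene lengths.

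A neuron that leaves the cell cycle in the developing hippocampus passes through a series of states, each with its own transcription factors and structural proteins. Basic helix-loop-helix factors of the NeuroD family bind the E-box motif and drive differentiation, doublecortin (Dcx) stabilizes the microtubules of migrating and growing neurons and is lost as they mature, and NeuN (Rbfox3), a splicing factor, and calbindin (Calb1), a calcium buffer, mark mature neurons. Prox1 specifies granule neurons of the dentate gyrus, Tbr1 marks young glutamatergic neurons, and Bcl11b (Ctip2) is found in granule neurons and in CA1 pyramidal neurons.

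The libraries held between 13573056 and 17211642 fragments, and each of the 9 genes was covered by at least 315 and at most 23950 fragments per library. All 9 passed the filter of a mean of at least 0.5 FPKM, as did 15958 genes in the table. Replicate 3 of the PCT group stood apart. The chi-square of its fragments over genes against the other 2 PCT libraries, divided by the degrees of freedom, was 15.4 and 17.5, whereas it was 5.39 between those 2 libraries and 3.61 to 4.27 between Control libraries. Replicate 3 of the NPCT group differed from its group by 8.78 and 8.87, and the other 2 NPCT libraries by 3.77. Astrocyte genes were abundant in cultures labelled as primary hippocampal neurons. Gfap, the astrocyte intermediate filament, was at 734 to 828 FPKM in Control libraries, next to 743 to 768 FPKM for Stmn2, a microtubule regulator of growing neurons. In RNA from whole cultures, fewer cells of a type and less RNA per cell cannot be told apart.

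In Control cultures the levels of the 9 genes spanned more than an order of magnitude, and Dcx was the highest. Its mean level was 158.3 FPKM ± 1.70 (SD, n = 3), above 97.6% of the genes tested. Neurod6 followed with 111.3 FPKM ± 1.21, then Neurod2 with 43.3 ± 4.15, Calb1 with 37.0 ± 1.30 and Rbfox3 with 30.7 ± 1.61. The lowest were Neurod1 with 23.2 FPKM ± 0.43, Prox1 with 14.5 ± 0.48, Tbr1 with 11.98 ± 1.02 and Bcl11b with 8.88 ± 0.58, the last being above 49.0% of the genes tested. The ranges of neighbouring genes did not overlap anywhere in this order. With PCT the order of the means was kept, but the ranges of Neurod2 and Calb1 and those of Prox1 and Tbr1 overlapped. With NPCT, Prox1 and Tbr1 could not be ordered, since their means were 12.3 and 12.4 FPKM and their ranges overlapped. The spread between replicates was smallest for Dcx and Neurod6 in Control, at 1.07% and 1.08% of the mean, and the same genes varied by 12.7% and 7.91% in PCT libraries.

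**Figure D1:**
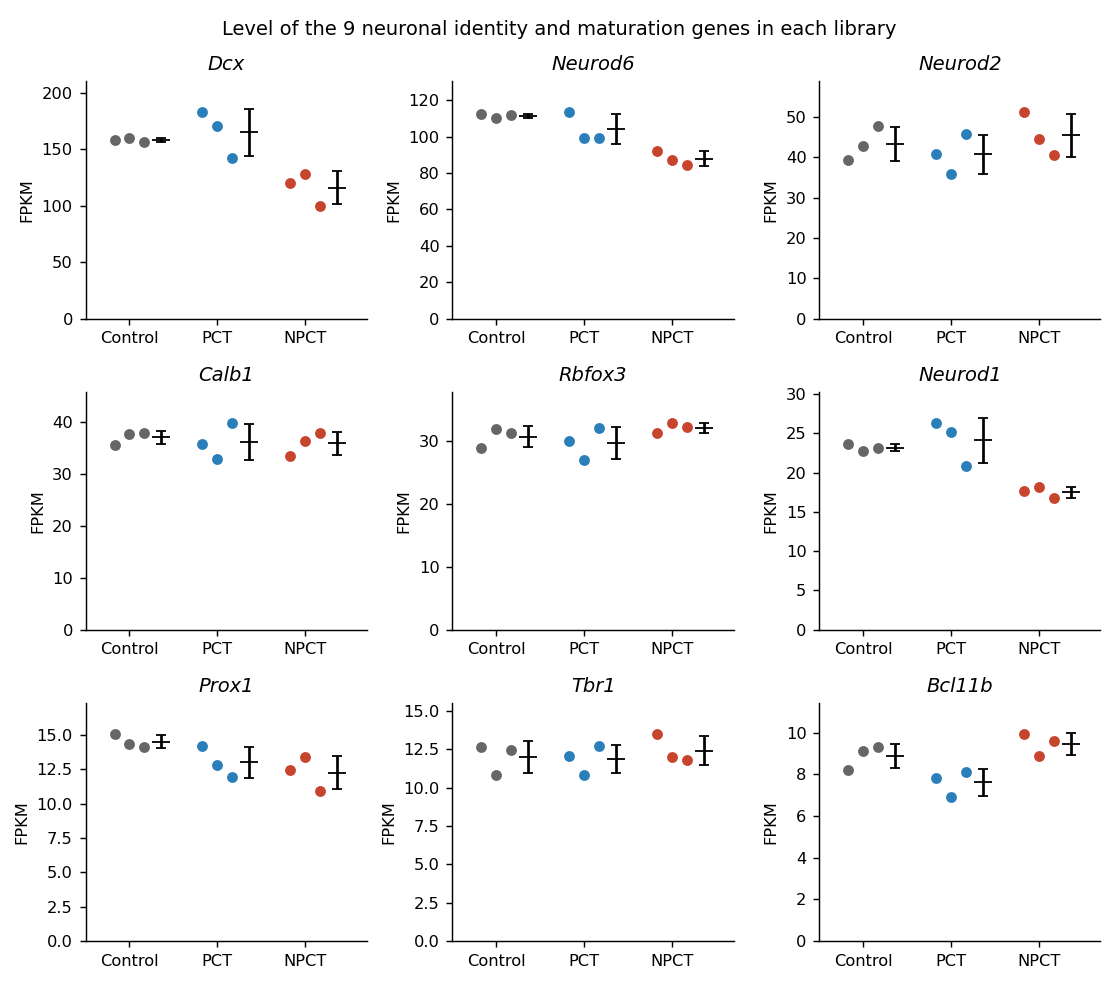
Level of each of the 9 genes in FPKM (vertical axis, from 0) in the 3 libraries of the Control, PCT and NPCT groups, with points in the order of replicates 1 to 3 and the mean ± SD beside them. Dcx, Neurod6, Neurod1 and Prox1 were lower in every NPCT library than in every Control library, whereas the other 5 genes overlapped between these groups.

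The first question was which of these genes differed between NPCT and vehicle. None of the 9 genes was called, that is, none passed an adjusted p of at most 0.05 (limma, Benjamini-Hochberg over all genes tested) together with a fold change above 1.5, and 0.219% of all genes did. At an unadjusted p under 0.05, 4 of the 9 were lower and 0 higher, beside 14.9% of all genes that were lower at this level. These 4 genes, Dcx, Neurod1, Neurod6 and Prox1, were also the ones whose NPCT libraries all lay under all Control libraries, as was the case for 20.3% of all genes. The median log2 difference of the 9 genes was -0.05, and that of all genes tested 0.006.

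Dcx showed the largest of these differences. Its level was 158.3, 160.1 and 156.7 FPKM in the Control libraries and 120.3, 128.4 and 99.5 FPKM in the NPCT libraries. The NPCT values lay under the lowest Control value, and replicate 3 was the lowest of them. In the table, on a build given as Rnor_6.0, Dcx lies on the minus strand of chromosome X from 115098675 to 115175299. The log2 difference was -0.46 (SE 0.11), or 27.1% lower with a 95% interval from 13.1% to 38.8%, at an adjusted p of 0.0561 (limma). Without NPCT replicate 3 the log2 difference was -0.35.

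Neurod1, which acts in the differentiation and survival of granule neurons, was at 23.6, 22.8 and 23.1 FPKM in Control and at 17.7, 18.1 and 16.7 FPKM with NPCT. The groups were apart, with little spread within either. Neurod1 (chromosome 3, 66414308 to 66417741, minus strand) was 24.4% lower (interval 13.2% to 34.1%), a log2 difference of -0.40 (SE 0.09) at an adjusted p of 0.0519 (limma). Neurod6, a factor of postmitotic pyramidal neurons, was at 112.3, 110.0 and 111.7 FPKM in Control and at 92.0, 87.3 and 84.1 FPKM with NPCT. Neurod6 (chromosome 4, 85911861 to 85915099, minus strand) was 21.1% lower (interval 12.6% to 28.9%), a log2 difference of -0.34 (SE 0.07) at an adjusted p of 0.0509 (limma). The third factor of the family was not among the lower genes. Neurod2, annotated as a pseudogene in the deposited table, was at 39.4, 42.8 and 47.7 FPKM in Control and at 51.2, 44.5 and 40.7 FPKM with NPCT, and the groups overlapped, although NPCT replicate 1 lay above every Control library and Control replicate 1 below every NPCT library. Its log2 difference was 0.07, with an interval from -0.19 to 0.33.

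In this comparison the adjusted p-values lay close together. The smallest over all genes was 0.0493, and 4671 of 15958 genes had an unadjusted p under 0.05. Dcx, Neurod1 and Neurod6 were at or under the limit of 0.05 in some alternative settings and above it in others. Over 19 alternative settings the adjusted p ranged from 0.0118 to 0.172 for Dcx, from 0.00483 to 0.169 for Neurod1 and from 0.00756 to 0.169 for Neurod6 (limma). Their log2 differences stayed between -0.53 and -0.35, -0.43 and -0.37, and -0.42 and -0.31, and none reached a fold change of 1.5. The PCT libraries do not enter the difference itself, but they enter the shared estimate of the spread and the filter on low values. Dcx, Neurod1 and Neurod6 were all at an adjusted p of at most 0.05 without PCT replicate 3, and Neurod1 and Neurod6 also without PCT replicate 1. With limma-voom and in a fit of only the NPCT and Control libraries all 3 were also at or under 0.05. The share of all genes at or under 0.05 moved with them, from 0.470% with all libraries to 19.2% without PCT replicate 3, 4.46% without PCT replicate 1, 9.53% with limma-voom and 18.8% in the fit of the 2 groups. With any 1 library of the Control or NPCT group left out all 3 stayed above 0.05. The levels also varied with gene length. The slope of the log2 level per doubling of length was between -0.026 and -0.018 in the NPCT libraries and between -0.0006 and 0.029 in the Control libraries. In PCT replicates 1 and 2 it was 0.021 and 0.027, and in PCT replicate 3 it was -0.028, beyond every NPCT library. Dcx (8827 bases in the table) and Prox1 (7235 bases) are long. With this trend removed, the log2 differences were -0.39 for Dcx, -0.39 for Neurod1, -0.36 for Neurod6 and -0.19 for Prox1.

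**Figure D2:**
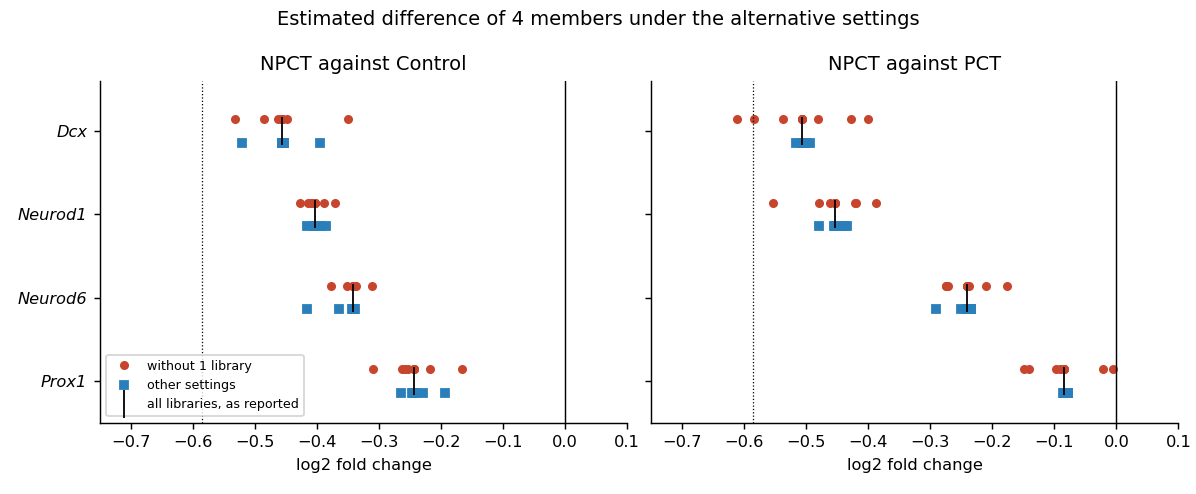
Log2 fold change (horizontal axis) of Dcx, Neurod1, Neurod6 and Prox1 for NPCT against Control and NPCT against PCT, as reported (bar), with 1 library left out (circles) and under the other settings (squares), and the dotted line at a fold change of 1.5. All estimates lay under 0, and a fold change of 1.5 was passed only by Dcx against PCT, without PCT replicate 3.

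Prox1 was at 15.1, 14.3 and 14.2 FPKM in Control and at 12.5, 13.4 and 11.0 FPKM with NPCT. The groups were narrowly apart. The log2 difference of Prox1 was -0.24 (SE 0.09; adjusted p = 0.125, limma), or 15.6% lower with an interval from 2.23% to 27.1%, and its unadjusted p was under 0.05 in 15 of 19 alternative settings. Without NPCT replicate 3 its log2 difference was -0.17, at an unadjusted p of 0.101 (limma). The other genes of identity and maturity overlapped between NPCT and Control. Rbfox3 was at 28.8, 31.9 and 31.2 FPKM in Control and at 31.2, 32.8 and 32.1 FPKM with NPCT, a log2 difference of 0.06 with an interval from -0.11 to 0.23. Calb1 was at 35.5, 37.7 and 37.9 FPKM in Control and at 33.4, 36.3 and 37.8 FPKM with NPCT, and its interval ran from -0.23 to 0.13. Tbr1 was at 12.7, 10.8 and 12.5 FPKM in Control and at 13.5, 11.97 and 11.8 FPKM with NPCT (log2 difference 0.05). Bcl11b was at 8.21, 9.13 and 9.29 FPKM in Control and at 9.92, 8.88 and 9.58 FPKM with NPCT (log2 difference 0.09). For all 5 overlapping genes the interval of the difference left out a change of 1.5-fold in either direction. The signs of the differences of Neurod2, Calb1 and Tbr1 turned when single libraries were left out.

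Promoters were searched for the motif that NeuroD factors bind. RefSeq promoter windows of the GRCr8 assembly were matched for 5 of the 9 genes, namely Dcx, Neurod1, Neurod6, Neurod2 and Tbr1, so that Prox1, the remaining lower gene, was not searched. Of these, 4 are printed as the 250 bases before the start site, the genes of the NeuroD family, which encode E-box binding factors, and Dcx, which had the largest difference. The windows, all on the minus strand, are chr4:86180156-86180405 (Neurod6), chr3:84770455-84770704 (Neurod1), chr10:83824278-83824527 (Neurod2) and chrX:112304162-112304411 (Dcx). They are written 5′ to 3′, and capitals mark the E-box CANNTG, which reads the same on both strands.
Neurod6: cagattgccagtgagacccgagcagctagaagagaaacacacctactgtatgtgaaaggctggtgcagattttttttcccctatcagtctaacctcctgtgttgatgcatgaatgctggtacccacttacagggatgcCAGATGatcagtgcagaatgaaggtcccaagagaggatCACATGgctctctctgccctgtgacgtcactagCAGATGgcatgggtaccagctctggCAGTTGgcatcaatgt
Neurod1: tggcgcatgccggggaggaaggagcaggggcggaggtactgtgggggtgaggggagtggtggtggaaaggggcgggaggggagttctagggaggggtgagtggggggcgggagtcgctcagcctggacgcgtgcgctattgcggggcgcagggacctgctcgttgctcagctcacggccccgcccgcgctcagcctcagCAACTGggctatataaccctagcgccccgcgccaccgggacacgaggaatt
Neurod2: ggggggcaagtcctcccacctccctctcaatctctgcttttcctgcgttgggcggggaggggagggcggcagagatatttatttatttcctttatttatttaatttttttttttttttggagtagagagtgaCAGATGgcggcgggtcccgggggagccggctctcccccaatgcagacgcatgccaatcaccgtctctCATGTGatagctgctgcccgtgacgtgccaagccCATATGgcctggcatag
Dcx: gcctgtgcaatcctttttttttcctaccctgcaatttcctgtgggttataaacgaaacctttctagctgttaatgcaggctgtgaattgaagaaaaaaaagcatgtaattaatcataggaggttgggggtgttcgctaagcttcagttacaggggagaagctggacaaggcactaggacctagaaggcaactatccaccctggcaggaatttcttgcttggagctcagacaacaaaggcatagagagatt
The window of Neurod6 held 4 E-boxes, which begin 112, 74, 41 and 16 bases before the start site, and 2 of them read CAGATG. Neurod2 held 3, which begin at 118, 51 and 17 bases, and the one at 118 bases also reads CAGATG. Neurod1 held 1 at 51 bases, and no match was found in the window of Dcx. That of Tbr1 held 1, at 46 bases. Of all 33469 windows of this length, 65.5% held CANNTG, with a median of 1 match, and 14.0% held CAGATG on either strand. A match is a run of letters and not a measured binding site.

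The second question was whether PCT differed from vehicle for these genes. None of the 9 was called, beside 2.31% of all genes. Only Bcl11b had PCT libraries that all lay under the Control libraries, as did 11.9% of all genes. It was at 7.83, 6.89 and 8.10 FPKM with PCT, and its log2 difference was -0.22 (SE 0.09; adjusted p = 0.236, limma). Dcx with PCT was at 182.9, 170.1 and 141.8 FPKM, so that 2 libraries were above and replicate 3 was below every Control library. Neurod1 had the same arrangement, with 26.3, 25.2 and 20.9 FPKM. Neurod6 was at 113.5, 99.1 and 99.4 FPKM. Without PCT replicate 3 the log2 difference of Dcx against Control was 0.16 and that of Neurod1 0.15, and with it both were 0.05. Prox1 was at 14.2, 12.9 and 11.99 FPKM, and its log2 difference was -0.16 with an interval from -0.37 to 0.05.

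**Figure D3:**
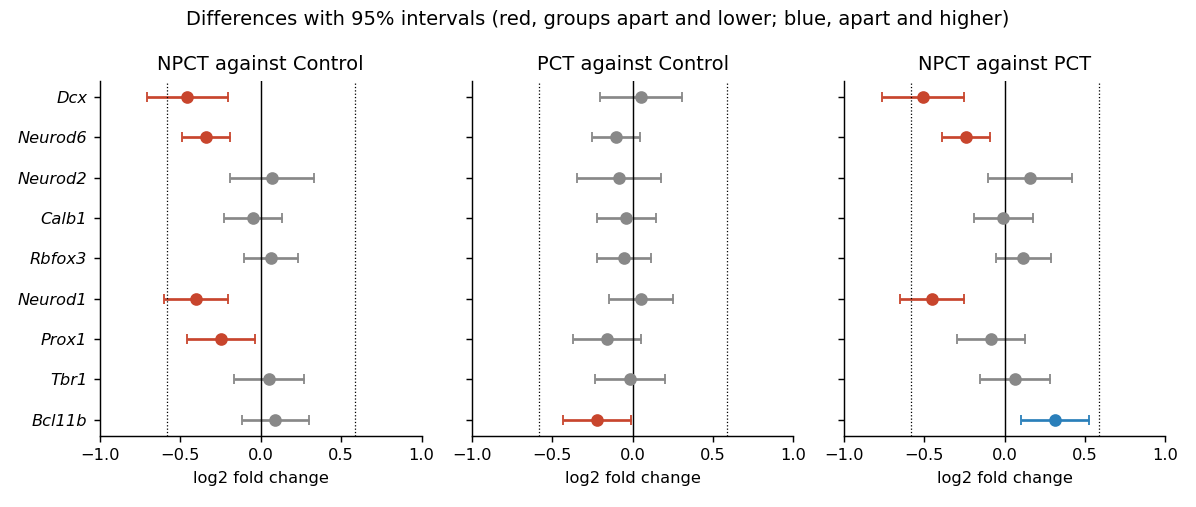
Log2 fold change of each gene (horizontal axis) with its 95% interval for the 3 comparisons, where dotted lines mark a fold change of 1.5 and colours mark groups whose 3 libraries did not overlap. Dcx, Neurod6 and Neurod1 were apart and lower with NPCT against both Control and PCT, and Bcl11b was apart and higher in NPCT than in PCT.

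The third comparison set the fragment against its parent protein at the same dose and time. It shares the NPCT libraries with the first comparison and the PCT libraries with the second, so that the 3 are not independent. None of the 9 genes was called, beside 5.76% of all genes. Dcx, Neurod1 and Neurod6 had an adjusted p of at most 0.05 without reaching a fold change of 1.5, and all 3 were lower with NPCT, beside 8.32% of all genes that were lower at this level. Their libraries were also apart, as for 18.0% of all genes in this direction. Dcx was 29.6% lower with NPCT than with PCT (interval 16.1% to 41.0%), a log2 difference of -0.51 (SE 0.11; adjusted p = 0.0201, limma). Neurod1 was 27.0% lower (interval 16.2% to 36.4%; adjusted p = 0.0133, limma), and Neurod6 15.4% lower (interval 6.21% to 23.7%; adjusted p = 0.0392, limma).

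Bcl11b was the 1 gene that was higher with NPCT than with PCT in every library, as were 15.4% of all genes. Its log2 difference was 0.31 (SE 0.09; adjusted p = 0.0506, limma). The adjusted p was under 0.05 in some alternatives, at 0.0461 with a mean FPKM of at least 1, 0.0479 with median-ratio scaling and 0.0295 with limma-voom. In a fit of only the NPCT and PCT libraries the adjusted p was above 0.05. With 1 library left out it ran from 0.0279 to 0.153 (limma), and the log2 difference from 0.24 to 0.36. The other 5 genes overlapped, with log2 differences of 0.16 for Neurod2, 0.12 for Rbfox3, 0.07 for Tbr1, -0.01 for Calb1 and -0.08 for Prox1. The interval for Calb1 ran from -0.19 to 0.17 and that for Rbfox3 from -0.05 to 0.29. The libraries left out mattered here. Without PCT replicate 3, Dcx was called, with a log2 difference of -0.61 (adjusted p = 0.00344, limma), and 4 of the 9 genes were at an adjusted p of at most 0.05, beside 29.1% of all genes in this fit and 16.3% with all libraries. Without PCT replicate 1, PCT replicate 2 or NPCT replicate 1 only Neurod1 was. Neurod6 was above 0.05 without any 1 library other than PCT replicate 3, Control libraries included, with adjusted p-values from 0.0617 to 0.106 (limma). It was also above with no filter on low values (0.0542) and with quantile normalization (0.0503). In a fit of only the NPCT and PCT libraries none of the 9 was at or under 0.05, beside 5.04% of all genes.

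For 6 pairs of genes, ratios within a library, chosen after the levels had been seen, are given as a description. Dcx relative to Rbfox3 was 5.49, 5.02 and 5.02 in Control, 3.86, 3.92 and 3.10 with NPCT and 6.11, 6.33 and 4.44 with PCT. The NPCT ratios were the lowest, and PCT replicate 3 lay between them and Control. Neurod6 relative to Neurod2 was 2.34 to 2.85 in Control, 1.80 to 2.07 with NPCT and 2.18 to 2.78 with PCT. Neurod1 relative to Neurod2 was 0.485 to 0.600 in Control, 0.345 to 0.411 with NPCT and 0.457 to 0.699 with PCT. The other 3 ratios involved Prox1, and PCT overlapped with Control in each. Prox1 relative to Neurod6 was 0.127 to 0.134 in Control, 0.130 to 0.153 with NPCT and 0.121 to 0.130 with PCT, and NPCT overlapped with Control. Prox1 relative to Tbr1 was 1.13 to 1.33 in Control, 0.926 to 1.12 with NPCT and 0.945 to 1.19 with PCT, so that NPCT lay under Control. Calb1 relative to Prox1 was 2.36 to 2.68 in Control, 2.68 to 3.45 with NPCT and 2.52 to 3.31 with PCT, the NPCT and Control ranges all but touching.

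**Figure D4:**
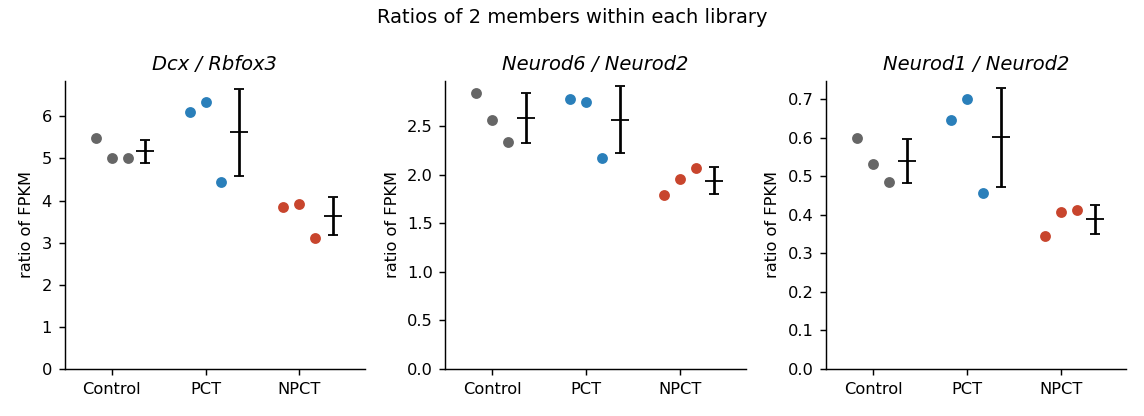
Ratio of FPKM of Dcx to Rbfox3, Neurod6 to Neurod2 and Neurod1 to Neurod2 (vertical axes, from 0) in each library, with the mean ± SD of each group. The 3 NPCT libraries had lower ratios than all Control and PCT libraries in each panel, with PCT replicate 3 nearest to them.

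The gene most like each member over the 9 libraries was looked up among all tested genes with a symbol, as Pearson's r of log2 levels. These values follow from the group means as well as from single libraries. Each r is the largest over all these genes in only 9 libraries, and how large it is for other genes was not computed. Neurod1 was closest to Necab1, a neuronal calcium-binding protein (r = 0.99), whose mean was 22.5 FPKM in Control, 14.0 with NPCT and 23.6 with PCT. Dcx was closest to Ube3a, a ubiquitin ligase (r = 0.99), at 18.9, 13.8 and 19.2 FPKM, and Neurod6 to Reep1, which shapes the endoplasmic reticulum (r = 0.98), at 114.3, 91.3 and 107.5 FPKM. Bcl11b was closest to Iqsec2 (r = 0.99), Prox1 to Zzef1 (r = 0.98), Neurod2 to Pim2 (r = 0.96), Rbfox3 to Zfp687 (r = 0.96), Tbr1 to the row annotated as Mir1893 (r = 0.94) and Calb1 to Atp6v0e2 (r = 0.93).

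Other genes of the same stages and fates were read from lists. Of 17 tested genes of immature neurons, 0 were called with NPCT, 6 lay under and 6 above all Control libraries, and their median log2 difference was 0.01. Over all genes tested, 20.3% lay under and 20.0% above, and the counts of all lists below are to be read beside these shares. Those lower included St8sia2, which adds polysialic acid to the adhesion molecule NCAM, at -0.36 (adjusted p = 0.0509, limma), and Ncam1 itself at -0.33 (adjusted p = 0.059, limma). Against PCT, 4 immature genes were lower at an adjusted p of at most 0.05, among them St8sia2 at -0.44 (adjusted p = 0.0046, limma) and Stmn2 at -0.30 (adjusted p = 0.017, limma), none of them 1.5-fold. The list thus held genes on both sides, and Tubb3, the neuronal tubulin, was at 623 to 686 FPKM in Control and 720.2 to 758 FPKM with NPCT.

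Of 20 mature neuron genes, 0 were called with NPCT against Control, 8 lay under and 4 above all Control libraries, with a median of -0.06. Snap25, a protein of synaptic vesicle fusion, was at 119 to 124 FPKM in Control and 84.4 to 96.0 FPKM with NPCT (log2 difference -0.42; adjusted p = 0.0541, limma), and Elavl4, an RNA-binding protein, had a log2 difference of -0.34 (adjusted p = 0.0546, limma). Against PCT, Elavl4 was called lower at -0.59 (adjusted p = 0.0036, limma) and Nrgn, a postsynaptic calmodulin-binding protein, was called higher at 0.80 (adjusted p = 0.0125, limma). Elavl4 stayed under an adjusted p of 0.05 but short of 1.5-fold without PCT replicate 1 (-0.57), PCT replicate 2 (-0.54) or NPCT replicate 3 (-0.56), and without PCT replicate 3 Nefm was called as well, at 0.70. Eno2, the neuronal enolase, ranged from 1.48 to 15.96 FPKM among Control libraries alone.

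The lists of granule, pyramidal, excitatory and inhibitory neurons held no called gene in any of the 3 comparisons with all libraries. Without PCT replicate 3, inhibitory genes were called for NPCT against PCT, among them Pvalb (1.44) and Gad2 (-0.62), and each of the other 3 lists gave 1 called gene in this comparison without 1 library. Pvalb was low, at 1.56 to 3.01 FPKM with NPCT and 0.502 to 1.91 FPKM with PCT over all libraries, where these ranges overlapped. For PCT against Control 0 immature and 0 mature neuron genes were called. Of 7 tested granule neuron genes, 2 lay above and 0 under the Control libraries with NPCT, and the median was -0.05. Sema5b was at 0.24 (adjusted p = 0.122, limma) and C1ql2, a synaptic protein of mossy fibres, at 0.54 (adjusted p = 0.203, limma), with 2.81 to 3.32 FPKM beside 1.34 to 2.80 FPKM in Control. Of 11 pyramidal field genes, 4 lay above and 2 under, and 8 had a higher estimate, with a median of 0.11. Pcp4, a calmodulin-binding peptide, had a mean of 53.7 FPKM in Control, 77.3 FPKM with NPCT and 71.2 FPKM with PCT, and neither difference from Control passed (adjusted p = 0.103 and 0.317, limma). Nectin3, a cell adhesion protein, was at -0.33 (adjusted p = 0.0772, limma). Among 18 excitatory forebrain genes the median was 0.01. The 2 vesicular glutamate transporters of this list had estimates of opposite sign, Slc17a7 (VGLUT1) with a log2 difference of 0.28 (adjusted p = 0.0539, limma) and Slc17a6 (VGLUT2) with -0.33 (adjusted p = 0.0661, limma). Against PCT, Slc17a7 was higher at 0.53 (adjusted p = 0.0026, limma) and Slc17a6 lower at -0.36 (adjusted p = 0.0308, limma), both under 1.5-fold. Of 14 inhibitory neuron genes 1 lay above and 2 under the Control libraries with NPCT, and Gad2, a GABA-synthesizing enzyme, was at -0.43 (adjusted p = 0.0516, limma) with NPCT against Control.

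**Figure D5:**
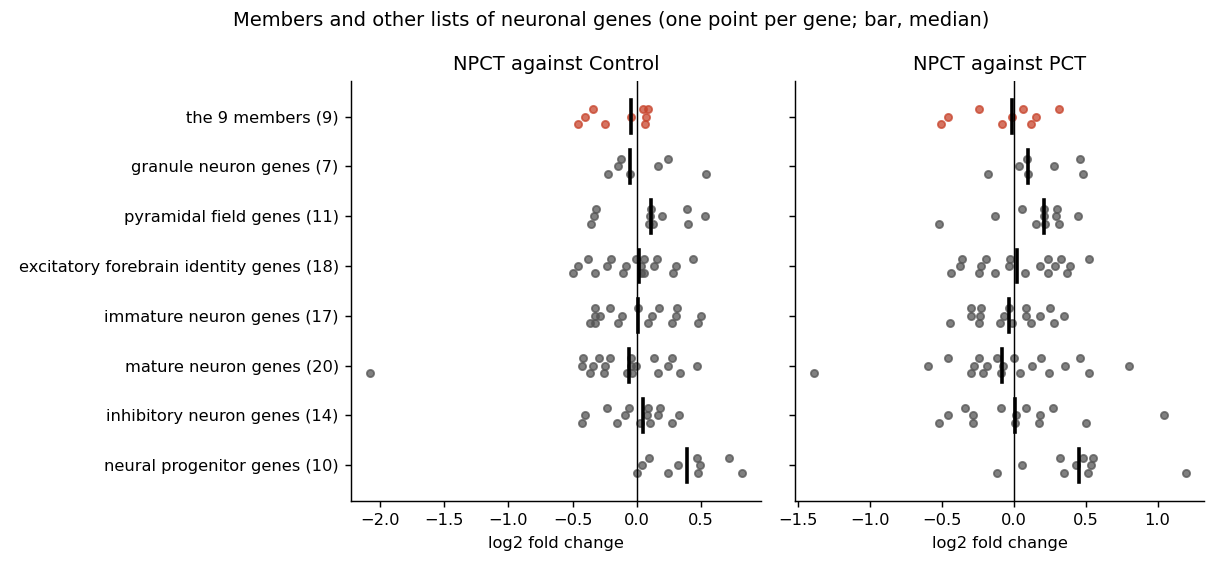
Log2 fold change of the 9 genes and of the tested genes of 7 other lists (1 point per gene, bar at the median, number of genes in brackets) for NPCT against Control and NPCT against PCT. The lists of neurons had medians between -0.06 and 0.11 against Control. The list of neural progenitor genes was at 0.39, and which cells its transcripts came from was not tested.

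Levels of genes of other cells are given beside these differences, and their part in the result was not tested. All 10 neural progenitor genes had a higher estimate with NPCT than in Control, 7 of them with groups apart and 0 called, and the median was 0.39. In the same comparison 6 of 10 dividing cell markers had a lower estimate and 4 a higher one, with a median of -0.11. Whether the transcripts of the progenitor list came from progenitors or from glia such as astrocytes was not tested. Without PCT replicate 3 Nes was called higher, at 0.72. Sox2, a progenitor transcription factor, was at 64.2 to 69.6 FPKM in Control and 91.1 to 97.7 FPKM with NPCT (log2 difference 0.47; adjusted p = 0.053, limma). The summed level of the list, led by Fabp7 and Vim, was 2779 to 2974 FPKM in Control, 3026 to 3338 FPKM with NPCT and 2230 to 2486 FPKM with PCT, where Hopx fell by 0.73 on the log2 scale (adjusted p = 0.0285, limma) and Nes rose by 0.83 (adjusted p = 0.0498, limma). These calls held in only some of the fits with 1 library left out, where the adjusted p ran from 0.00679 to 0.0996 for Hopx and from 0.0415 to 0.157 for Nes. For NPCT against PCT 1 of 10 was called higher, Hopx, and 3 without PCT replicate 3. Astrocyte markers summed to 2461 to 2640.4 FPKM in Control and 2412 to 2681 FPKM with NPCT, with 0 of 9 called, and to 2122 to 2193 FPKM with PCT, where 5 of 9 were called lower. Against PCT, 3 of 9 were called higher with NPCT. With 1 library left out these counts were 3 to 5 and 3 to 4. Their highest genes were Gfap and Slc1a3. Gfap was the 1 astrocyte gene with a higher estimate with PCT than in Control, at 899 to 931 FPKM with the groups apart (log2 difference 0.25; adjusted p = 0.147, limma). Over all 9 libraries the highest microglia markers were C1qc and C1qb, but this pair did not lead within Control or NPCT. In Control C1qb had a mean of 7.52 FPKM and C1qc of 5.72 FPKM. The microglia markers summed to 32.2 to 45.2 FPKM in Control, 42.9 to 198 FPKM with NPCT and 15.6 to 20.1 FPKM with PCT. The high end came from NPCT replicate 3 alone, since the other 2 NPCT libraries were at 42.9 and 48.8 FPKM. Without it the median log2 difference against Control was 0.02 over 9 tested genes, and with it 0.58 over 11. Of 11 microglia genes 0 were called for NPCT against Control, 4 were called lower for PCT against Control and 7 higher for NPCT against PCT. With 1 library left out these counts were 1 to 5 and 4 to 7, the first being 1 without Control replicate 1, Control replicate 3, PCT replicate 2 or PCT replicate 3, and the second 6 without NPCT replicate 3.

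Oligodendrocyte lineage markers, led by Olig1 and Cnp, summed to 475 to 491 FPKM in Control, 517 to 553 FPKM with NPCT and 431 to 449 FPKM with PCT, with 0 of 10 called in each comparison. Most of the list did not share the direction of the lower sum with PCT. For PCT against Control 8 of 10 had a higher estimate and 2 a lower one, with a median log2 difference of 0.19. Olig1 had a mean of 271.5 FPKM in Control and 190.7 FPKM with PCT. Dividing cell markers, led by Top2a and Cdk1 over all 9 libraries, summed to 87.3 to 95.0 FPKM in Control, 74.3 to 99.9 FPKM with NPCT and 85.4 to 94.7 FPKM with PCT. With NPCT, Aurkb had the highest mean of the list, at 15.4 FPKM, and Top2a was at 13.7 FPKM. For NPCT against PCT 1 of 10, Aurkb, was called higher, though not without PCT replicate 1. The list did not share this direction, since 6 of 10 had a lower estimate with a median log2 difference of -0.11, and Bub1 was called lower without PCT replicate 3 (-0.68) or NPCT replicate 2 (-0.67). For NPCT against Control 4 of 10 lay under and 1 above the Control libraries. Fibroblast markers, led by Pdgfra and Col1a1, summed to 48.7 to 49.2 FPKM, 36.0 to 50.6 FPKM and 55.6 to 62.0 FPKM, and 1 of 7, Col3a1, was called, higher with PCT than in Control and lower with NPCT than with PCT. With 1 library left out its adjusted p ran from 0.0168 to 0.161 and from 0.0126 to 0.0680 (limma). For NPCT against PCT, Col1a1 was called lower without PCT replicate 1 (-0.80) and Lum without PCT replicate 3 (-0.90). Most of this sum was Pdgfra, which also marks oligodendrocyte precursors and is in both lists, at 34.0 to 37.3 FPKM in Control, and the other fibroblast genes summed to 11.9 to 15.03 FPKM in Control, 11.7 to 13.3 FPKM with NPCT and 14.3 to 23.2 FPKM with PCT. Endothelium and pericyte markers summed to at most 5.13 FPKM, and Cldn5 was listed at 0 in all 9 libraries. Pdgfrb and Kdr alone were tested, and neither was called. Pdgfrb, a pericyte receptor, was at 2.90 to 3.54 FPKM in Control, 3.09 to 3.9005 FPKM with NPCT and 2.57 to 2.67 FPKM with PCT, so that PCT lay under both other groups (adjusted p = 0.245 against Control and 0.110 against NPCT, limma).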

How the data were processed

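The authors sequenced poly-A selected RNA of 9 libraries. Per the submitters' processing notes they used CASAVA, HISAT2 2.0.5, StringTie 1.3.3b, featureCounts 1.5.0-p3 and DESeq2 1.20.0 on build Rnor_6.0. The deposited values are FPKM, computed by the authors from fragments counted per gene, and 0 columns of per-sample values were left unused. Fragments per gene were recovered as FPKM times length over the step of each library, and came out whole (tolerance 0.05) in 100% of values. Intervals cover the spread between libraries only.

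The values, as log2(FPKM + 0.1), entered a limma 3.58.1 model (R 4.3.3) with a variance trend and 1 mean per group over all 9 libraries, on genes with a mean of at least 0.5 FPKM. P-values were adjusted by Benjamini-Hochberg per comparison over all genes tested, and folds are on this log2 scale. Called genes had an adjusted p no larger than 0.05 together with a fold above 1.5. Groups were apart where the ranges of their 3 libraries did not overlap. The procedure was tested on simulated data with a common dispersion for all genes and changes above 1.5-fold. That test therefore does not show how well differences under 1.5-fold, such as those of the 9 genes, are found.

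The 9 genes and the 13 lists were chosen with earlier results of these data known. From the lists, called genes were named, at most 3 per list and comparison with the smallest p. Where none was called, at most 2 with the smallest unadjusted p were named. Called astrocyte and microglia genes were the exception and were only counted. Of lists of other cells the 2 highest genes over all libraries were named, and per member the gene with the highest r. Gfap, Stmn2, Tubb3, Slc17a6, Eno2, Pcp4, Nefm, Pvalb, Cldn5, Aurkb, Bub1, Lum and Pdgfrb were added after their values were seen where the rule did not name them, as was the count of members at any fold. Labels give no batch. Replicate numbers were not used as pairs, and no annotation of build Rnor_6.0 was used beyond the deposited table. Alternatives were pseudocounts 1 and 0.01, a minimum mean of 1 FPKM or none, other scalings, limma-voom on the recovered fragments, a length correction, a fit of 2 groups, a replicate block and leaving out each library.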

Additional observations from a re-analysis of the deposited data

How the results depend on the processing

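The 9 genes gave the same count of called genes, 0, in 56 of 57 alternative fits, the exception being NPCT against PCT without PCT replicate 3, with 1 (0 to 1 over the libraries left out). The count at an adjusted p of at most 0.05 at any fold was less stable. For NPCT against Control it was 0, and it was 2 with a mean FPKM of at least 1 and with quantile normalization, 3 with limma-voom, with a fit of only the 2 groups and with the replicate block, and 0 to 3 with libraries left out. Over all genes the same count was 75, and 734, 601, 1520, 3015 and 1235 in these 5 fits and 0 to 3075 with libraries left out. For NPCT against PCT it was 3, and it was 2 with no filter and with quantile normalization, 4 with a mean FPKM of at least 1, with median-ratio scaling and with limma-voom, 0 in the fit of only the 2 groups and 1 to 4 with libraries left out. Over all genes it was 2599, and 1959, 2447, 2607, 2566, 2828 and 805 in these 6 fits and 1000 to 4653 with libraries left out. The log2 difference kept its side of the thresholds and its sign in 497 fits of single genes, and Dcx passed them only as above, at -0.61.

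The other 15 were changes of sign of differences near 0, and the cause was not tested. For NPCT against Control, leaving out libraries moved Neurod2 between -0.0202 and 0.146, Tbr1 between -0.0210 and 0.0927 and Calb1 between -0.0875 and 0.00155. For PCT against Control it moved Rbfox3 between -0.110 and 0.0141, Neurod1 between -0.0148 and 0.151, Tbr1 between -0.0866 and 0.0481, Calb1 between -0.111 and 0.0253 and Dcx between -0.0276 and 0.156, and for NPCT against PCT Calb1 between -0.0737 and 0.0627. Dcx was at -0.00556 for PCT against Control with quantile normalization and Tbr1 at 0.0143 with the length trend removed.

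The count of called genes over all genes depended on the processing for NPCT against Control. It was 35, and 208 with a mean FPKM of at least 1, 9 with no filter, 189 with quantile normalization, 3 with the length trend removed, 357 with limma-voom, 581 with the 2 groups alone, and 0 to 561 with libraries left out, the highest without PCT replicate 3. With the replicate block it was 319, but same-numbered libraries of different groups correlated by only -0.07 to 0.03 and were not treated as pairs. For PCT against Control it was 368 (172 to 392 with libraries left out), and for NPCT against PCT 919, 483 with the 2 groups alone, and 528 to 1626 with libraries left out, the highest again without PCT replicate 3. Each of the 9 genes had at least 315 fragments in every library, and the number of 3 libraries per group limits what these tests can show.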
